A study of Lymantria dispar dispar and Lymantria dispar asiatica with 30 samples.

Results

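A hemolymph lipopolysaccharide-binding protein, Toll-like receptor 4 (TLR4) and serine protease gd are 3 of the 19654 gene models measured in female spongy moth pupae (Lymantria dispar), and all 3 carry the names of proteins that recognise microbes or belong to a Toll pathway. The gene annotation gave these names by similarity to known proteins. The genes were chosen by their row identifiers, which are Lda.11807 for the lipopolysaccharide-binding protein, Lda.35963 for TLR4 and Lda.3881 for gd, with their levels in both strains already known, so the strain differences below are descriptions and carry no test. The study asked which genes accompany female flight, a capability of Asian but typically not of European females. It sequenced poly(A) RNA from single whole pupae of both strains through pupal life. Asian spongy moth (ASM) pupae came from the RM colony (L. d. asiatica) in its laboratory generation 34, and European spongy moth (ESM) pupae came from the CT colony (L. d. dispar) in its generation 32. Each strain was sampled on days 1, 3, 5, 8 and 11 of pupal life with 3 female pupae a day, which gave 10 groups and 30 libraries.

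All larvae were reared in small cohorts on a wheat germ diet. The ASM diet held 0.21 g and the ESM diet 0.13 g of iron phosphate per litre. Each strain was a single colony on its own diet, so strain, colony and diet cannot be told apart. The reads of both strains were aligned to a draft ASM genome, and the part of this in the strain differences was not tested.

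Insects recognise microbes with soluble proteins of the hemolymph, the insect blood. The lipopolysaccharide-binding protein was described in the cockroach Periplaneta americana as a C-type lectin, a sugar-binding protein, that binds the lipopolysaccharide of bacterial cell walls. Recognition in the hemolymph sets off cascades of serine proteases that end in melanisation or in the processing of the cytokine Spätzle, the ligand of the Toll receptor. In Drosophila the protease gd (gastrulation defective) stands in such a cascade in the embryo, upstream of Spätzle and Toll, where it sets the dorsoventral axis. The name TLR4 comes from mammals, in which this receptor senses lipopolysaccharide together with the co-receptor MD-2.

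The deposited values are DESeq2 variance-stabilised counts, a log2-like scale that is not a true log2. A doubling spans 0.207 units at 1 normalised read, 1.51 units at 100 and 0.652 units at 10000. Levels are therefore given below as normalised read counts, recovered from the deposited values, and tests as differences on the deposited scale with their standard error (SE). The libraries held between 2638217 and 10809355 recovered reads, with a median of 5555910 in ASM and 4809569 in ESM. No gene lengths were used, so levels are compared between pupae and not between genes. Nothing in the labels pairs pupae of the strains or names their families, so the tests measure the spread between these pupae.

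The lipopolysaccharide-binding protein was more abundant in ESM than in ASM pupae on every day, by a margin that was widest on day 1 and narrowest on day 8. On day 1 its normalised read counts were 30890, 17944 and 17354 in the 3 ESM pupae and 454, 465 and 145 in the 3 ASM pupae. The mean of the ESM pupae was 62.2 times that of the ASM pupae, and the lowest ESM pupa stood 37.3 times above the highest ASM pupa. In whole pupae, a lower level can come from fewer cells that make the transcript or from less transcript per cell, which cannot be told apart.

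On day 3 the ESM pupae held 20229, 27648 and 14483 normalised reads of the lipopolysaccharide-binding protein and the ASM pupae 1367, 573 and 564. On day 5 the ESM pupae held 25443, 14395 and 32898, and the ASM pupae 649, 984 and 4302. The ESM pupae of days 3 and 5 overlapped those of day 1, while ASM pupae differed widely among themselves, with ASM pupa 3 of day 5 well above the other 2. The ESM to ASM ratio of means was 24.9 on day 3 and 12.3 on day 5, and 29.7 on day 5 without ASM pupa 3.

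On day 8 the ESM pupae held 5305, 4125 and 6846 normalised reads of the lipopolysaccharide-binding protein and the ASM pupae 1298, 3921 and 1040. On day 11 the ESM pupae held 5140, 3439 and 3141, and the ASM pupae 273, 399 and 1023. The strains came closest on day 8, when the ratio of means was 2.60 (4.64 without ASM pupa 2) and the lowest ESM pupa was only 1.05 times the highest ASM pupa. On day 11 the ratio of means was 6.91 (11.6 without ASM pupa 3).

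Every ASM pupa lay below every ESM pupa of the same day on 5 of 5 days. The share of all tested genes with such an order on all 5 days was not computed. Over all tested genes, an ASM group wholly below its ESM group was found for 10.3%, 13.4%, 7.57%, 14.4% and 12.1% of genes in the order of days. Nothing is read from the 5 of 5 days, because the gene was chosen with its strain levels known. Across days the strains did overlap, since the highest ASM pupa, with 4302 normalised reads on day 5, exceeded the lowest ESM pupa, with 3141 on day 11. With all days pooled, every ASM pupa lay below every ESM pupa in 0.132% of all tested genes, and this gene was not among them. On the deposited scale the difference between strains, ASM minus ESM, was -6.05, -4.13, -3.27, -1.50 and -3.44 in the order of days, each with an SE of 0.71. This SE uses 1 spread for all groups, while the SD between pupae of a day was 1.31 in ASM and 0.29 in ESM. Averaged over days the difference was -3.68 (SE 0.32), and by its size it ranked 15 of 19652 tested genes. Ranks by size, here and below, are on the deposited scale, where the span of a doubling depends on the read level. They do not order genes by fold difference.

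The share of the lipopolysaccharide-binding protein in the libraries also differed between strains. Its reads made up between 0.0761% and 0.652% of a library in ESM pupae, and between 0.0026% and 0.0768% in ASM pupae. The ESM pupae were also more alike. The highest ESM pupa of a day was between 1.64 and 2.29 times the lowest, against 2.43 to 6.63 times among ASM pupae.

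**Figure D1:**
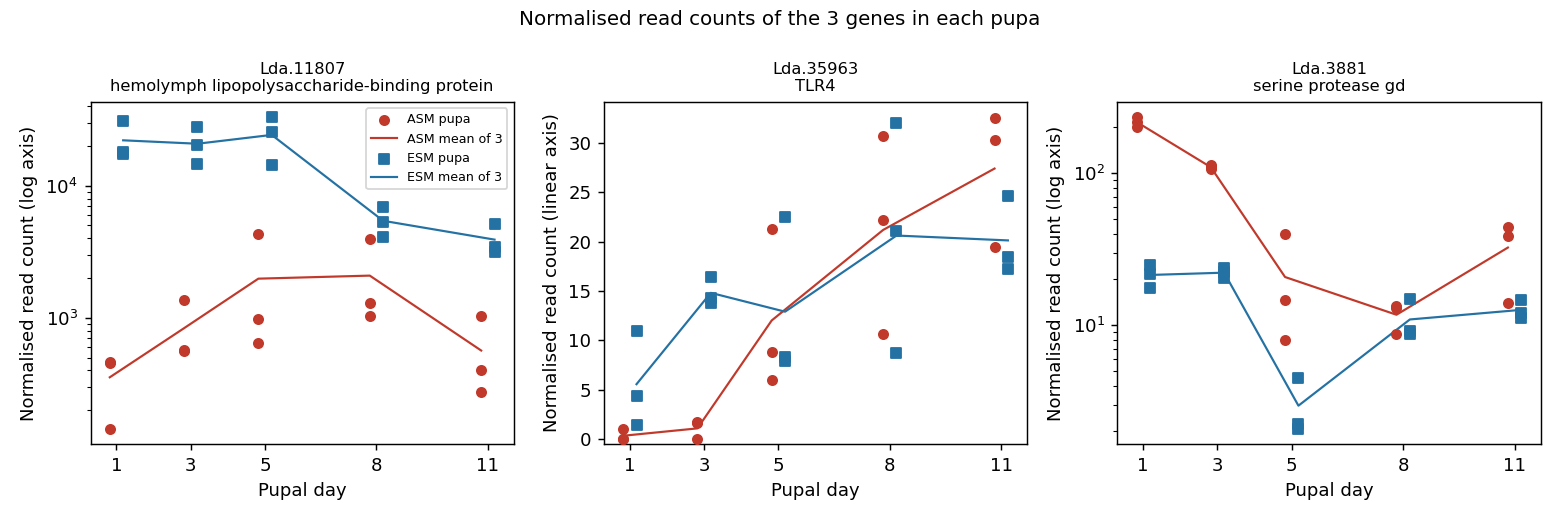
Normalised read counts (vertical axes, logarithmic for the lipopolysaccharide-binding protein and gd and linear for TLR4) against pupal day, with 1 point per pupa and lines through the means of 3 pupae in ASM (red circles) and ESM (blue squares). The ESM pupae lie above the ASM pupae on all 5 days for the lipopolysaccharide-binding protein and on days 1 and 3 for TLR4, and the ASM pupae lie above on days 1, 3 and 5 for gd.

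The course of the lipopolysaccharide-binding protein over pupal life was tested with both strains averaged. It changed over the 5 days (moderated F test of limma with Benjamini-Hochberg adjustment, adjusted p = 0.0124), as did 70.4% of all tested genes. No single step between consecutive days passed the limma test. The differences were 0.92 (SE 0.50, adjusted p = 0.258) from day 1 to 3, 0.53 (adjusted p = 0.506) from day 3 to 5, -0.47 (adjusted p = 0.502) from day 5 to 8 and -1.35 (adjusted p = 0.0743) from day 8 to 11. The last step passed in limma without ASM pupa 3 of day 1 (-1.35, adjusted p = 0.0377), without ASM pupa 3 of day 5 (-1.35, adjusted p = 0.0438) or without ASM pupa 3 of day 11 (-1.73, adjusted p = 0.0134).

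The days of the highest and lowest mean differed between strains, which was not tested. The ESM mean of the lipopolysaccharide-binding protein was highest on day 5, at 24245 normalised reads, and lowest on day 11, at 3907. The main drop came between days 5 and 8, when the mean was 4.47 times lower and no day 8 pupa reached a day 5 pupa. The ASM mean was lowest on day 1, at 354 normalised reads, and highest on day 8, at 2086. Every ASM pupa of day 3 lay above every ASM pupa of day 1, and every ASM pupa of day 11 lay below every ASM pupa of day 8. For comparison, an ESM group wholly lower on day 8 than on day 5 was found for 18.1% of all tested genes. An ASM group wholly higher on day 3 than on day 1 was found for 9.9%, and one wholly lower on day 11 than on day 8 for 12.4%.

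The gene named TLR4 was a rare transcript in every library, with at most 47 reads. In insects, receptors of the Toll family carry the signal of Spätzle into cells and so switch on antimicrobial peptide genes. On day 1 the 3 ASM pupae held 0, 0 and 1 reads and the 3 ESM pupae 7, 2 and 4 reads. On day 3 the ASM pupae held 0, 2 and 2 reads and the ESM pupae 17, 16 and 9. Every ESM pupa of these days lay above every ASM pupa, yet the ASM levels were at or under the 3 reads that a count of 0 allows. From the summed reads and size factors, the ESM to ASM ratio was 11.0 on day 1 (exact 95% interval 1.65 to 467) and 12.7 on day 3 (4.62 to 48.9), intervals that cover counting error only.

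From day 5 the strains overlapped in TLR4. The ASM pupae held 21, 6 and 9 reads on day 5, 35, 16 and 29 on day 8, and 40, 47 and 21 on day 11. The ESM pupae held 10, 4 and 7 reads on day 5, 21, 9 and 30 on day 8, and 20, 37 and 30 on day 11. The ASM to ESM ratio of mean normalised reads was 0.931 on day 5 and 1.03 on day 8. The day 5 ratio turned on single pupae, with 0.573 without ASM pupa 1 and 1.48 without ESM pupa 1. On day 11 the means were 27.4 ± 7.0 in ASM and 20.1 ± 4.0 in ESM (SD, n = 3 each). The late difference between strains was thus within the spread of the pupae. On the deposited scale ASM minus ESM was -1.11, -2.10, -0.10, 0.08 and 0.49 in the order of days, each with an SE of 0.51. Averaged over days it was -0.55 (SE 0.23), which ranked 3889 of 19652 tested genes by size. The 2 early days without overlap stand beside 10.3% and 13.4% of all tested genes with ASM wholly below ESM.

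TLR4 changed over pupal life in both strains together (moderated F test of limma, adjusted p = 4.46e-06), as did 70.4% of all tested genes. The direction was upwards, as the means were lowest on day 1 in both strains, at 0.357 normalised reads in ASM and 5.57 in ESM, and highest on day 11 in ASM and on day 8 in ESM. No single step passed the limma test. The differences were 0.74 (SE 0.36, adjusted p = 0.185), 0.70 (adjusted p = 0.171), 0.75 (adjusted p = 0.102) and 0.29 (adjusted p = 0.692) for the 4 steps in order. The step from day 5 to 8 passed in limma on leaving out ASM pupa 1 of day 5 (0.99, adjusted p = 0.0339), ASM pupa 2 of day 8 (0.98, adjusted p = 0.0382), ESM pupa 1 of day 5 (0.99, adjusted p = 0.0347) or ESM pupa 2 of day 8 (1.02, adjusted p = 0.0268). With both strains pooled, no step between neighbouring days passed with all pupae, while the whole course did.

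In ASM pupae the mean of TLR4 was 10.9 times higher on day 5 than on day 3, when only 4 reads were found in all, and every day 5 pupa lay above every day 3 pupa, as for 16.9% of all tested genes. In ESM pupae the step without overlap was that from day 1 to day 3, with a mean 2.66 times higher. Such a step was found for 12.1% of all tested genes. The difference in timing between strains was not tested.

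The gene named serine protease gd showed the opposite order of strains, with more transcript in ASM pupae early in pupal life. On day 1 the ASM pupae held 233, 218 and 202 normalised reads and the ESM pupae 25.0, 17.5 and 21.6. On day 3 the ASM pupae held 112, 109 and 107, and the ESM pupae 20.3, 22.4 and 23.7. Pupae of one strain were close to each other on both days and the strains lay far apart. The mean of the ASM pupae was 10.2 times that of the ESM pupae on day 1 and 4.95 times on day 3.

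On day 5 the ASM pupae held 39.5, 7.96 and 14.7 normalised reads of gd and the ESM pupae 2.25, 2.08 and 4.52. The ratio of means was 7.03 (3.84 without ASM pupa 1), but the ESM values rest on 1, 1 and 4 reads and ASM pupa 1 stood above the other 2. Without that pupa the difference on the deposited scale was 1.23 in place of 1.90. The exact 95% interval of the ESM to ASM ratio from summed reads ran from 0.0569 to 0.371, for counting error only.

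On day 8 the strains met, with 8.76, 13.3 and 13.0 normalised reads of gd in the ASM pupae and 9.13, 8.77 and 14.8 in the ESM pupae. On day 11 the ASM pupae held 38.8, 44.4 and 13.9, and the ESM pupae 11.1, 14.7 and 12.1. The strains overlapped on both days. On day 11 the overlap came from ASM pupa 3, and without it the difference on the deposited scale was 1.92 in place of 1.33.

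Every ASM pupa lay above every ESM pupa on 3 of 5 days for gd. An ASM group wholly above its ESM group was found for 9.21%, 13.6% and 8.53% of all tested genes on these days in order, and nothing is read from the count. On the deposited scale ASM minus ESM was 4.69, 2.97, 1.90, 0.10 and 1.33 in the order of days, each with an SE of 0.45. Averaged over days it was 2.20 (SE 0.20), which ranked 107 of 19652 tested genes by size. These SEs also use 1 shared spread, while the SD between pupae of a day was 0.73 in ASM and 0.27 in ESM.

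**Figure D2:**
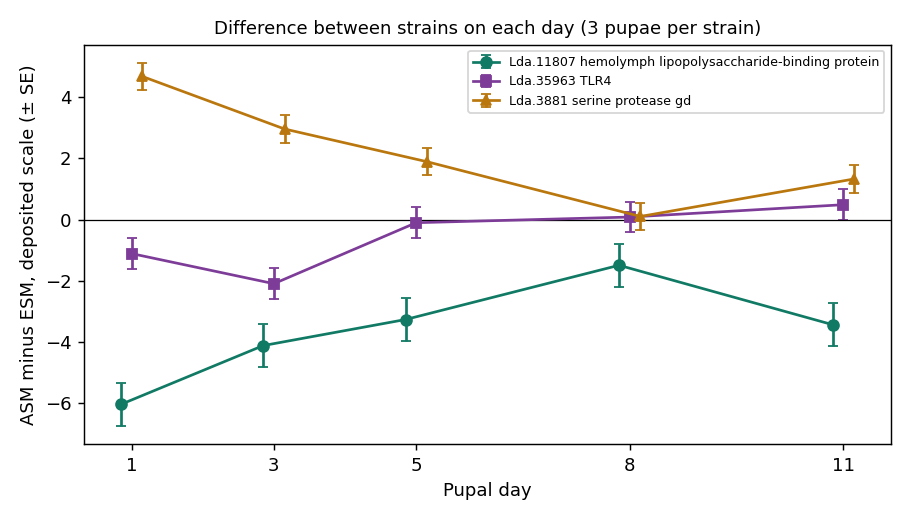
Difference between strains (vertical axis, ASM minus ESM on the deposited log2-like scale, points with bars of 1 SE) against pupal day for the 3 genes, from 3 pupae per strain and day. The lipopolysaccharide-binding protein lies below 0 throughout, from -6.05 on day 1 to -1.50 on day 8, gd comes down from 4.69 on day 1 to 0.10 on day 8, and TLR4 passes from -2.10 on day 3 to 0.49 on day 11.

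The protease gd fell during early pupal life. It changed over the 5 days (moderated F test of limma, adjusted p = 3.62e-10), as did 70.4% of all tested genes. The fall from day 3 to day 5 was -2.78 (SE 0.32, limma adjusted p = 2.90e-07) with both strains averaged. A fall at this step was called for 10.8% of all tested genes. In both strains every pupa of day 5 lay below every pupa of day 3. The mean was 5.29 times lower in ASM and 7.51 times lower in ESM pupae, whose day 5 mean rests on 6 reads in all. An ASM group wholly lower at this step was found for 16.6% and an ESM group for 12.5% of all tested genes.

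The other steps of gd did not pass in limma. They were -0.79 from day 1 to 3, 0.29 from day 5 to 8 and 0.82 from day 8 to 11, with adjusted p between 0.0849 and 0.506. The first step passed in limma without ASM pupa 1 of day 5 (adjusted p = 0.0385) or without ASM pupa 3 of day 11 (adjusted p = 0.0486). The last step passed in limma without ASM pupa 1 of day 5 (adjusted p = 0.0296), ASM pupa 2 of day 5 (adjusted p = 0.0499) or ASM pupa 3 of day 11 (1.12, adjusted p = 0.00653). After day 5 the ESM mean of gd was 3.69 times higher on day 8, with every day 8 pupa above every day 5 pupa, as for 19.8% of all tested genes. This ratio too rests on only 6 reads in the ESM pupae of day 5. The ASM mean was 2.77 times higher on day 11 than on day 8, again with no overlap, as for 10.3% of all tested genes.

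The 3 genes did not share one pattern. Over the 30 libraries the deposited values of the lipopolysaccharide-binding protein and gd ran in opposite directions (Pearson r = -0.70, Spearman rho = -0.49), as did those of TLR4 and gd (r = -0.65, rho = -0.44). The lipopolysaccharide-binding protein and TLR4 were only weakly related (r = 0.23, rho = 0.10). These libraries fall into 10 groups of strain and day, which carry most of the relation. With the group means removed the coefficients were -0.29, 0.22 and -0.20 in the same order.

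A list of 14 other immune genes was taken from genes named in the study, and most of them were listed there for expression in these same pupae. It is no independent evidence of a direction. The list holds 5 recognition proteins, 3 proteases or inhibitors and 6 genes of signalling and transcription. Over pupal life 12 of the 14 changed in limma (85.7%, against 70.4% of all tested genes). Between strains 4 of the 14 were higher in ASM and 0 were lower at an adjusted p under 0.05 in limma, which is 28.6% against 23.4% of all tested genes (12.4% higher and 10.9% lower). The median strain difference of the list was 0.18 on the deposited scale and that of all tested genes 0.02.

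Among the recognition proteins, a second gene, also named a C-type lectin, carries the description of the lipopolysaccharide-binding protein. Its strain pattern was another. On days 1, 3 and 5 the strains overlapped, with ASM means of 944, 727 and 563 and ESM means of 1036, 812 and 513 normalised reads. On day 8 the ASM pupae held 292, 66.5 and 188 normalised reads and the ESM pupae 33.5, 50.7 and 52.7. On day 11 the ASM pupae held 48.1, 16.7 and 102, and the ESM pupae 3.68, 6.66 and 2.88. No ASM pupa of these 2 days reached as low as an ESM pupa of its day, as for 15.8% and 12.2% of all tested genes. ASM pupae thus kept more of the C-type lectin late in pupal life, and averaged over days it was higher in ASM by 1.18 (SE 0.32, limma adjusted p = 0.00792). The deposited values of the C-type lectin and the lipopolysaccharide-binding protein were hardly related over the 30 libraries (r = 0.03, rho = 0.17). Whether reads of one could be counted to the other was not tested.

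With both strains averaged, all 5 of the other recognition proteins fell from day 5 to day 8, a step at which 18.1% of all tested genes fell in limma. The C-type lectin fell by 3.97 (adjusted p = 6.34e-07, limma). The gene named macrophage mannose receptor 1, after a lectin receptor of mammals, fell by 5.09 (adjusted p = 2.87e-09, limma). The MD-2-related lipid-recognition protein fell by 3.07 (adjusted p = 5.74e-08, limma). Peptidoglycan-recognition protein LB, an enzyme that degrades bacterial peptidoglycan in Drosophila, fell by 1.67 (adjusted p = 0.00101, limma). The beta-1,3-glucan-binding protein, of a family that recognises fungal walls, fell by 1.51 (adjusted p = 0.0104, limma), and with values set relative to 4 reference genes it missed the threshold at 0.0517. The falls differed in size between strains, which was not tested. The mean of the mannose receptor was 31.7 times lower in ESM and 3.90 times lower in ASM, and that of the C-type lectin 11.2 and 3.09 times. Pupae of the 2 days overlapped for the mannose receptor in ASM and for the beta-1,3-glucan-binding protein in ESM. For the lipopolysaccharide-binding protein the difference at this step was -0.47 and did not pass (limma adjusted p = 0.502), although its ESM pupae of the 2 days did not overlap.

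From day 8 to day 11, the C-type lectin, the mannose receptor and the MD-2-related protein fell further, by 2.90, 2.06 and 2.21 (limma adjusted p = 0.000133, 0.00257 and 2.30e-05), a step at which 9.04% of all tested genes fell and 6.27% rose. Peptidoglycan-recognition protein LB rose by 1.26 (limma adjusted p = 0.0233), a call lost on leaving out any 1 of 5 libraries, with a highest adjusted p of 0.0714. These were ASM pupa 2 of day 8, ASM pupa 1 of day 11, ESM pupae 2 and 3 of day 8 and ESM pupa 2 of day 11. Between strains the beta-1,3-glucan-binding protein was higher in ASM by 0.82 (SE 0.29, limma adjusted p = 0.0390). That call was lost on leaving out any 1 of 13 libraries and in 3 of 8 other settings, with a highest adjusted p of 0.290. Of the 5, the C-type lectin, the mannose receptor and the MD-2-related protein thus fell at both late steps, and the beta-1,3-glucan-binding protein had a difference of 0.02 at the last step (limma adjusted p = 0.988).

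**Figure D3:**
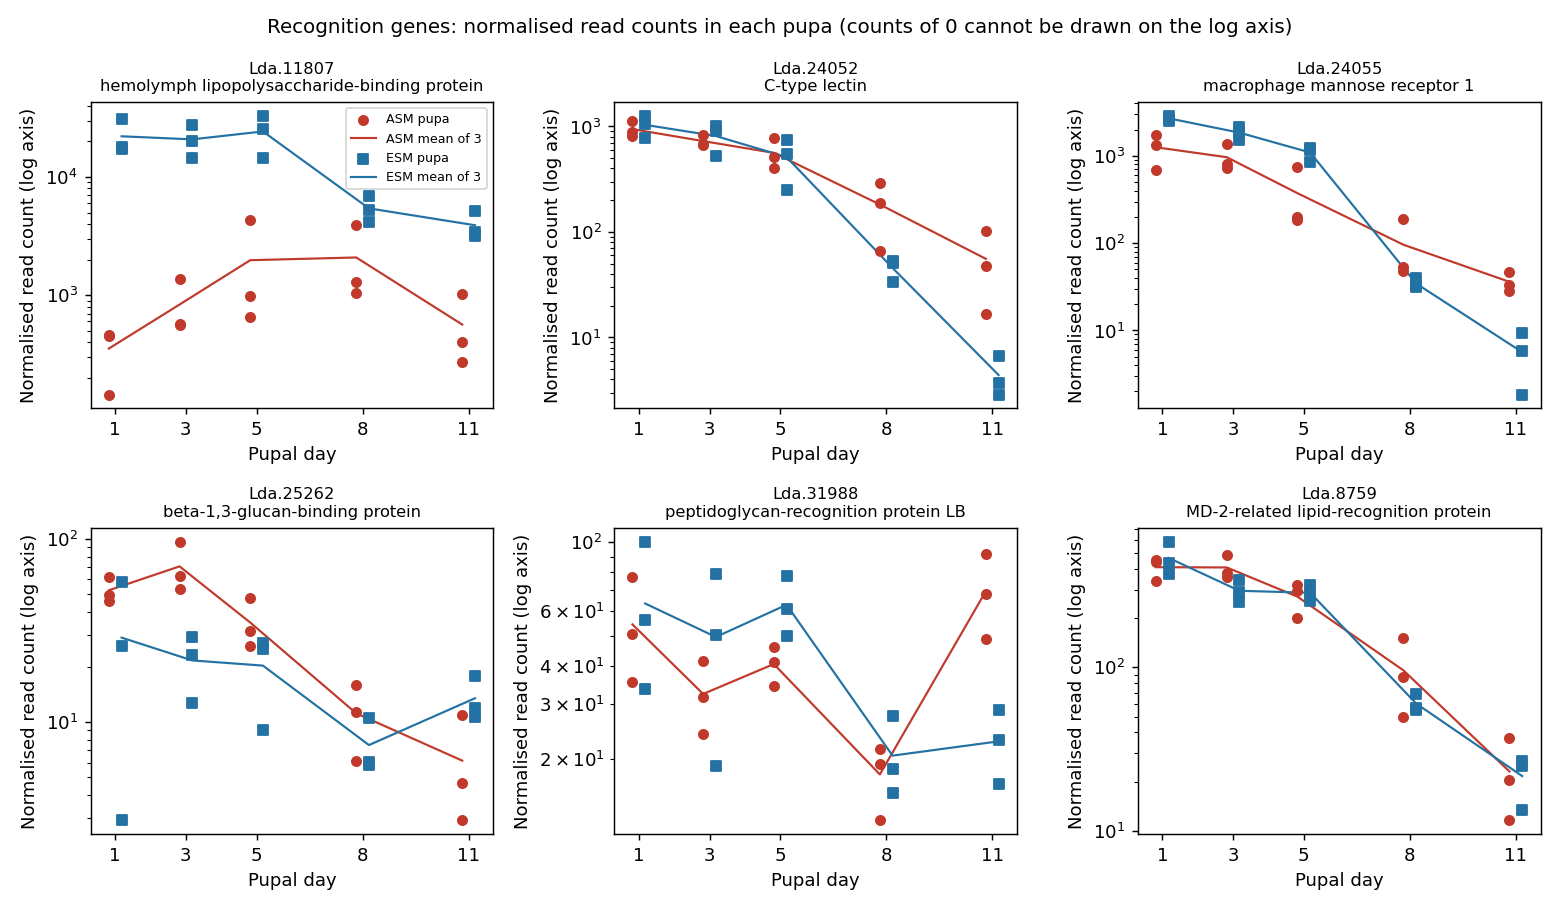
Normalised read counts (vertical axes, logarithmic) against pupal day for the lipopolysaccharide-binding protein and the 5 other recognition genes, with 1 point per pupa and lines through the means of 3 pupae in ASM (red circles) and ESM (blue squares). The lipopolysaccharide-binding protein has the ESM pupae above the ASM pupae on all 5 days, whereas the ASM pupae of the C-type lectin lie above the ESM pupae on days 8 and 11.

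Of the proteases and inhibitors, one is named a phenoloxidase-activating enzyme, a serine protease that starts melanisation. Like gd it was more abundant in ASM pupae. It held from 1.29 to 80.9 normalised reads in the 15 ASM pupae, with a median of 7.00, and had 0 reads in 10 of the 15 ESM pupae, whose highest value was 4.69. Averaged over days it was higher in ASM by 2.09 on the deposited scale (SE 0.42, limma adjusted p = 0.000774). Its course over days did not pass (limma adjusted p = 0.483), unlike that of gd.

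The inducible metalloproteinase inhibitor, of a kind that lepidopterans make against microbial proteases, was at most 5.92 normalised reads in any pupa up to day 5. It held between 185 and 601 normalised reads in every pupa of days 8 and 11, and the rise from day 5 to 8 was 8.34 (limma adjusted p = 4.29e-19), a step at which 19.4% of all tested genes rose. The trypsin inhibitor fell from day 1 to 3 by 4.69 (limma adjusted p = 0.00192), a fall called for 7.66% of all tested genes, and had 0 reads in all pupae of days 5, 8 and 11. Its day 1 reads were spread widely, with 3, 61 and 429 in the ASM pupae and 420, 36 and 11 in the ESM pupae.

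Of the 6 genes of signalling and transcription, 5 changed over days, against 70.4% of all tested genes, and the directions differed. The homolog of a lipopolysaccharide-induced factor that regulates TNF-alpha in mammals, fell at each of the 4 steps, by 1.55, 1.87, 1.87 and 1.63 (limma adjusted p at most 0.000393). The nitric oxide synthase-like protein rose from day 5 to 8 by 3.32 (limma adjusted p = 5.51e-06). Hopscotch, the Janus kinase of Drosophila, rose at the same step by 0.96 (limma adjusted p = 0.0138, and 0.0559 without ESM pupa 2 of day 5). The ubiquitin ligase SH3RF1 rose by 1.01 (limma adjusted p = 0.000951). These 3 genes thus rose, as did 19.4% of all tested genes, at the step at which the recognition proteins fell, and TLR4 had a difference of 0.75 there that did not pass (limma adjusted p = 0.102).

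DSP1 and groucho are nuclear proteins that act together with Dorsal, the transcription factor at the end of the Toll pathway in Drosophila. From day 3 to day 5, the step at which gd fell, DSP1 fell by 0.73 (limma adjusted p = 0.000883) and groucho by 0.58 (limma adjusted p = 0.0342). Both calls were lost (adjusted p = 0.155 and 0.503, limma) with values set relative to the reference genes, which themselves changed over days. That of groucho was also lost on leaving out ASM pupa 1 or 2 of day 3, ASM pupa 2 of day 5, or ESM pupa 1 or 3 of day 3 or of day 5. Between strains, neither passed (limma adjusted p = 0.0942 and 0.370). Hopscotch was higher in ASM by 0.69 (SE 0.19, limma adjusted p = 0.0100), a call lost relative to the reference genes (adjusted p = 0.407).

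**Figure D4:**
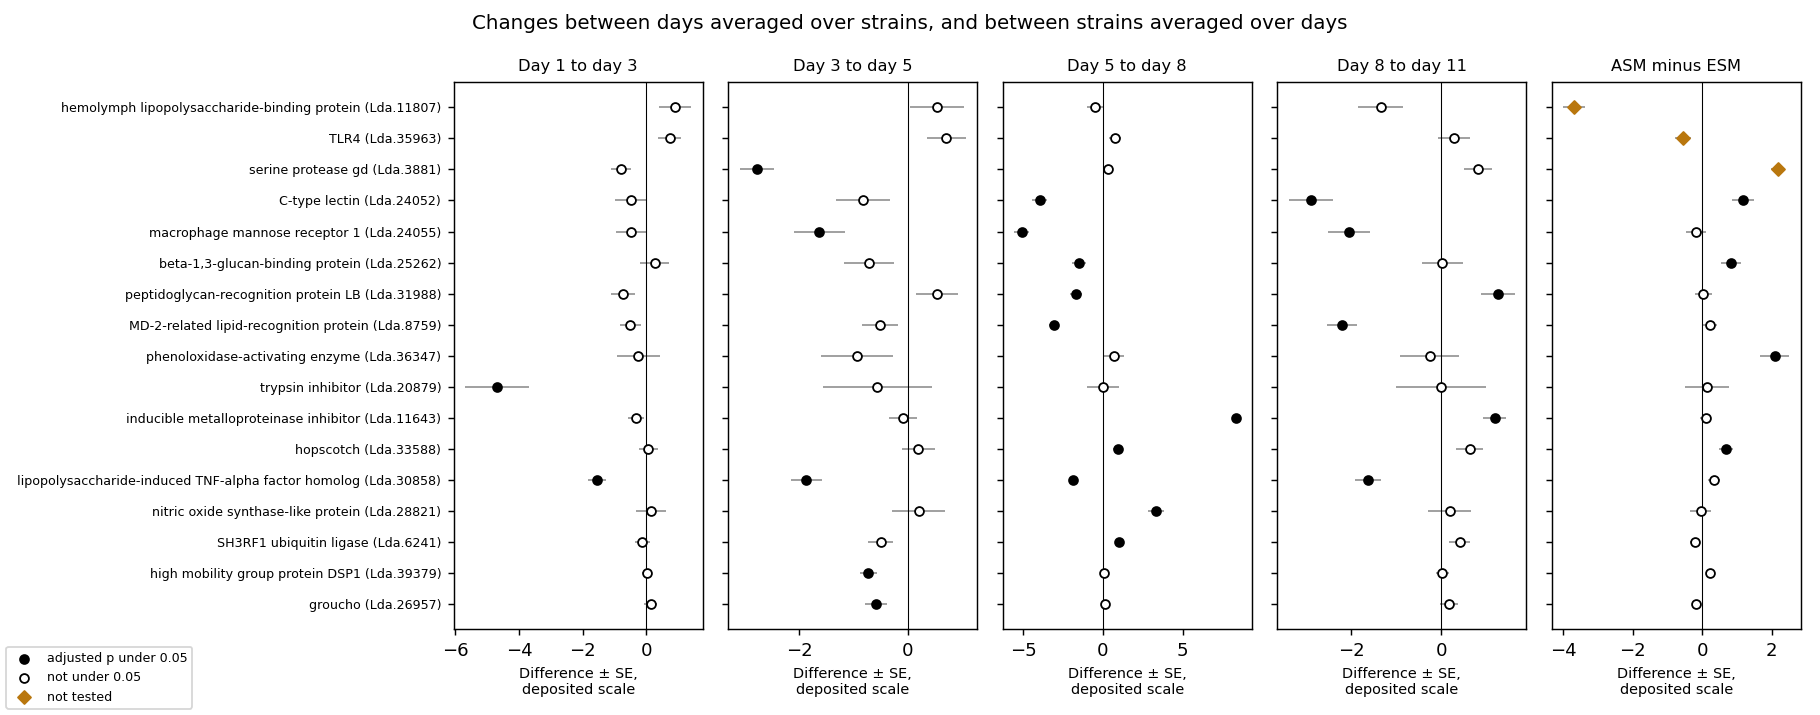
Differences on the deposited scale (horizontal axes, points with bars of 1 SE) for the 3 genes and the 14 other immune genes, for the 4 steps between days averaged over strains and for ASM minus ESM averaged over days. Filled points passed at an adjusted p under 0.05, open points did not, and diamonds mark the strain differences of the 3 genes, which were not tested. The 5 other recognition genes, from C-type lectin down to the MD-2-related protein, lie below 0 at the step from day 5 to day 8, and gd lies at -2.78 at the step from day 3 to day 5.

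Some marker genes of tissues that make immune proteins also differed between strains. Hemolymph proteins come largely from the fat body and from haemocytes, the blood cells. Of 3 markers, peroxidasin (of haemocytes) was higher in ASM by 1.11 (limma adjusted p = 7.39e-07), sex-specific storage-protein 1 (of fat body) was lower in ASM by 1.19 (-1.19, limma adjusted p = 0.0140), and acidic juvenile hormone-suppressible protein 1 (of fat body) did not pass (0.51, limma adjusted p = 0.353). The 2 fat body markers summed to between 6.65 and 174 normalised reads in ASM pupae and between 1.15 and 236 in ESM pupae. The haemocyte marker ranged from 151 to 889 in ASM and from 159 to 489 in ESM pupae. Only sex-specific storage-protein 1 was at 0 in a pupa, and in 1 of 30. By day, this marker was wholly lower in ASM pupae on days 3 and 5, overlapped on days 1 and 8, and was wholly higher in ASM on day 11 (mean 12.3 normalised reads against 0.414 in ESM), when the lipopolysaccharide-binding protein was lower in ASM. The lipopolysaccharide-binding protein thus differed in the direction of sex-specific storage-protein 1 and gd in that of peroxidasin when averaged over days. The other fat body marker, at 0.51 and not passing, had the sign opposite to the lipopolysaccharide-binding protein, and haemocytes had only 1 marker. The part of these tissues in the results was not tested.

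The genes most like each of the 3 over the 30 libraries were ranked by Pearson correlation of deposited values among 13976 genes with a mean of at least 10 normalised reads. All share the libraries and their 10 groups, and no meaning is read from the likeness. For the lipopolysaccharide-binding protein they were 2 genes with no description used here (r = 0.86, rho = 0.84 for the first and r = 0.82, rho = 0.82 for the second). The most alike gene with a description ranked 18 (a retrovirus-related Pol polyprotein of a transposon, r = 0.75, rho = 0.78). On day 1 the second of these had means of 4.03 normalised reads in ASM and 30.7 in ESM, the strain order of the lipopolysaccharide-binding protein.

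For TLR4 the most alike were an aarF domain-containing protein kinase (r = 0.91, rho = 0.85) and a gene with no description used here (r = 0.89, rho = 0.87). The mean of this kinase was 80.1 in ASM and 113 in ESM on day 1 and 235 and 236 on day 8. Its mean was thus lower in ASM on day 1 and level on day 8, and the other days were not compared. For gd the most alike were a gene with no description used here (r = 0.92, rho = 0.91) and cystathionine beta-synthase, an enzyme of sulfur amino acid metabolism (r = 0.90, rho = 0.75). Cystathionine beta-synthase had means of 233 in ASM and 12.7 in ESM on day 1, and of 6.31 and 3.07 on day 8. With the group means removed, the coefficients for these 6 most alike genes lay between 0.36 and 0.66, and for the Pol polyprotein it was 0.10.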

How the data were processed

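Poly(A) RNA of 30 single whole female pupae was sequenced on Ion Proton. Per the submitters' processing notes and methods, the authors checked and trimmed reads (FastQC 0.11.5, Trimmomatic 0.36), removed iflavirus reads, aligned both strains to a draft ASM genome with HISAT2, assembled transcripts (StringTie), counted reads per gene (featureCounts 2.0.0) and deposited variance-stabilised values on a log2-like scale (DESeq2 1.28.1, R 4.0.2). No other column was in the file. The 19654 genes had a shared lowest value, -0.516, for a count of 0. Inverting the shared curve gave whole reads, within 0.05, for at least 99.8% of values in each library. For counts up to 1000 reads, which include all those of TLR4 and gd, this held for 100% of values in each library. The larger counts of the lipopolysaccharide-binding protein were rounded to whole reads, and their distance to whole is not given separately. No 2 replicates of a group differed by as little as sampling noise (30 pairs, lowest mean chi-square per gene 6.15).

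The test was limma 3.58.1 (R 4.3.3) on the deposited log2-like values, with 10 group means, a variance trend and Benjamini-Hochberg adjustment over 19652 genes detected (above the floor) in 3 or more libraries; all 3 members passed this filter. Calls used an adjusted p of 0.05. All groups share 1 estimate of the spread, so leaving out a pupa of another day can change the p of a step but not its difference. Normalised counts are recovered reads over size factors. A ratio of means is given where each group held more than 3 reads. The scripts were tested on simulated data. Members and lists were chosen with earlier results of these data known, and the strain differences of the 3 genes were not tested. Named genes are the 3 members, the 14 immune genes, the markers, and for each member the 2 most correlated genes and the most correlated gene with a description in the study. Alternatives covered scale, scaling, filter, variance model, a replicate block and leaving out each library. Same-numbered pupae of the 2 strains were correlated above 0.1 in 6 of 15 pairs (r from -0.25 to 0.42), among them all 3 pairs of day 1 and 2 of day 5. As not every pair was, the numbers were not taken to pair pupae. No sequence of the genes was used here.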

Additional observations from a re-analysis of the deposited data

Results flagged for a closer look

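In 4 of the 14 other immune genes, every ASM pupa lay above every ESM pupa on one day and below on another, as in 8.42% of all tested genes, and in 0 of the lipopolysaccharide-binding protein, TLR4 and gd. The change of order was not tested. For the mannose receptor the ASM to ESM ratio of mean normalised reads was 0.466, 0.523 and 0.342 on the first 3 days sampled, against 2.78 and 6.39 on the last 2. For the peptidoglycan-recognition protein it was 0.643 on day 5 and 3.06 on day 11. For the TNF-alpha factor homolog it was 1.58 on day 3 and 0.658 on day 11. For SH3RF1 it was 1.34 on day 5 and 0.831 on day 8.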

How the results depend on the processing

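The values of the 3 genes and the counts of calls, over all genes and in the immune list, were recomputed under other settings. Of these 232 values 220 were judged the same, each kind by its own rule. Steps kept their direction and side of the threshold, and day courses their side, whatever their size. A strain difference moved by less than the SD between pupae, and a count of calls stayed within a set fold range. Under these settings none of the 232 lost a call or was labelled reversed, but a strain difference smaller than the SD could change sign without that label. Of 26 single calls among the other immune genes, 6 were lost under at least 1 such setting and 4 on leaving out a library, 8 in all, and 0 reversed. The 4 reference genes were those of the study's qPCR (actin, GAPDH, Ef1g and gamma-tubulin). All 4 changed over days here (limma adjusted p at most 0.00267). Between strains actin and Ef1g were higher in ASM by 0.31 and 0.41 (limma adjusted p = 0.00163 and 1.89e-05), and GAPDH and gamma-tubulin did not pass. Values relative to these genes shifted the median of all genes by -0.24 between strains and by 0.15 to 0.43 between days. Under them 4092 genes were called from day 1 to 3 (2725 otherwise) and 6843 from day 8 to 11 (3009 otherwise). Steps of TLR4 from day 1 to 3 (1.36, limma adjusted p = 0.0283) and day 3 to 5 (1.31, adjusted p = 0.0321) and of gd from day 8 to 11 (1.18, adjusted p = 0.00534) then passed, and the strain differences were -1.21 for TLR4 and 1.55 for gd. On log2 of the normalised count plus 1, the step of TLR4 from day 3 to 5 passed (1.12, limma adjusted p = 0.0475), and the strain differences were -2.08 and -3.04 for TLR4 and 3.30 and 2.26 for gd on days 1 and 3. Leaving out 1 library moved the steps of the lipopolysaccharide-binding protein from day 8 to 11 between -1.73 and -1.05, of TLR4 from day 5 to 8 between 0.54 and 1.02, and of gd from day 1 to 3 between -0.87 and -0.73 and from day 8 to 11 between 0.64 and 1.12. It moved the strain difference of gd between 1.23 and 2.42 on day 5 and between 0.97 and 1.92 on day 11. With the replicate block 13781 genes changed over days (13842 without it), and no call of the 3 genes changed. This block was an effect of the replicate number shared by all days, so it could not take up a likeness of pairs confined to single days. TLR4, at 0 in some libraries, had no value under the filter on all libraries. What difference its depth of at most 47 reads could show was not tested.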
